A study of Mus musculus with 20 samples.

Results

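KRAB-rich zinc finger genes are 111 mouse genes named Zfp700 to Zfp999, Zkscan or Zscan whose counts summed to 200 or more over 20 liver libraries, out of 55421 genes in the count table and 153 genes with such names. The members were selected on this sum of measured counts and on their names, and on no comparison between groups. Of the 111, 93 are Zfp genes, 9 are Zkscan genes and 9 are Zscan genes. The other 42 genes with such names fell below the sum, and 8 of them had no count in any library. The members just inside the limit were Zfp783 with 206 counts and Zfp937 with 232, and the genes just outside were Zfp982 with 196 and Zfp979 with 172. All 111 members passed the low-count filter of the test (10 counts in total), 89 had 1000 counts or more, and 101 averaged at least 1 CPM, the count scaled to the size of its library.

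Bulk RNA-seq was measured on poly(A) RNA of whole livers from wildtype C57BL/6 mice, labelled female, that had received an AAV8 vector at 6 months of age. The vector expressed Staphylococcus aureus Cas9 (saCas9) from the Tbg promoter, which is active in hepatocytes, and carried a guide RNA against HIRA, the histone chaperone that deposits the variant H3.3, or against Rosa26, a locus used as a neutral target. All 4 groups therefore received vector and nuclease, and the Rosa26 groups are not untreated livers. The groups were Rosa26 at 3 weeks, HIRA at 3 weeks, Rosa26 at 6 months and HIRA at 6 months after injection, with 5 livers each. The non-hepatocyte cells of these livers were not targeted by the promoter but are in the RNA.

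Zinc finger proteins of the C2H2 class bind DNA through an array of fingers, each holding a zinc ion with a pair of cysteines and a pair of histidines. In the largest subfamily a KRAB domain at the start of the protein recruits TRIM28 (KAP1), which brings the histone methyltransferase SETDB1, HP1 proteins and deacetylases, and many such proteins silence transposable elements. A SCAN domain, found in Zscan and Zkscan proteins, lets zinc finger proteins pair with each other. These genes arose by repeated duplication and often sit side by side in the genome.

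Each library held 19916430 to 24079736 counts, and the members together took 0.0937% to 0.108% of them, a small share of each library. Hira itself had 128 to 171 counts in the Rosa26 and 87 to 127 in the HIRA libraries at 3 weeks (log2 fold change −0.48 ± 0.14 SE, edgeR adjusted p = 0.197), and 105 to 157 against 109 to 136 at 6 months (−0.10 ± 0.14, adjusted p = 0.794). Scaled to library size, the ranges of Hira did not overlap at 3 weeks (6.04 to 8.54 against 4.15 to 5.95 CPM), although the test did not pass, and overlapped at 6 months, and an edited transcript can still be counted. One library, HIRA at 6 months replicate 5, held 9 counts of Xist and 2041 of Y-linked genes, against 6286 to 8436 and at most 13 in the other 19, which goes against its label. The main results at 6 months are also given without it.

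The name of the set was checked against the proteins. Of the members, 108 matched the GENCODE M21 annotation of GRCm38 (mm10), and 107 had a coding sequence that could be translated. A KRAB sequence pattern was found in 73 of the 107 (68.2%), against 1.54% of 21951 protein-coding genes and 35.9% of the 816 genes with at least 1 C2H2 finger. It was present in 68 of 90 Zfp, 4 of 9 Zkscan and 1 Zscan member, and divergent KRAB boxes would be missed by it. The SCAN pattern was found in 14 members, 4 of which also had the KRAB pattern, and 24 members had neither. The median number of fingers was 11 with the KRAB pattern and 7 without, and 3 members, Zfp703, Zfp750 and Zfp839, had none that matched the pattern. The set is thus rich in KRAB genes but about 1 in 3 of its proteins (34) showed no KRAB pattern, and the medians and counts below 0 are given for both kinds at each guide comparison.

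The promoters of 4 of the 6 members that passed the test in a guide comparison (below) are printed for their gene and position, as RefSeq gives them for GRCm38.p6. They are the 150 bases before the start, read 5′ to 3′ on the strand of the gene. Capitals mark CCGGAA (the core of sites of ETS factors), CACGTG (an E-box) or CCAAT, each searched on both strands. Zfp760 and Zfp820 are neighbours on chromosome 17 whose levels were both lower with the HIRA guide at 6 months, and Zkscan4 and Zkscan6 are the SCAN genes that were lower. The stretches lie at chr17:21707591-21707740 (Zfp760, plus strand), chr17:21845760-21845909 (Zfp820, minus strand), chr13:21478699-21478848 (Zkscan4, plus strand) and chr11:65807025-65807174 (Zkscan6, plus strand). The table lists a second start for Zkscan6, whose 150 bases (chr11:65807815-65807964) held none of the motifs, and the stretch printed is the one that ends at the annotated start of the gene.
Zfp760: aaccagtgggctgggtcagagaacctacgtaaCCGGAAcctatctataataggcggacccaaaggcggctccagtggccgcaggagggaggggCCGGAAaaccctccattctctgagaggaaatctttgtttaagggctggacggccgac
Zfp820: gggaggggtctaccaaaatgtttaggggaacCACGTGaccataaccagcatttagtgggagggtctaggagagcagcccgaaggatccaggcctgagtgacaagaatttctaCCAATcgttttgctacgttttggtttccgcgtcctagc
Zkscan4: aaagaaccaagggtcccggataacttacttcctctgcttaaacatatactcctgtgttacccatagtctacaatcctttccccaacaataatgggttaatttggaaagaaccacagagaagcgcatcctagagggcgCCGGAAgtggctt
Zkscan6: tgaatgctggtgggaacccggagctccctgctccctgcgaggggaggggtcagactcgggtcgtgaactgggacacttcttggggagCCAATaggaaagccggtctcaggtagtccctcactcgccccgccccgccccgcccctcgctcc

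Both members from the chromosome 17 run differ in what their stretch holds, 2 CCGGAA matches for Zfp760 and 1 CACGTG and 1 CCAAT match for Zfp820. The promoter table listed 114 starts for 95 members, and the start listed first for each gene was searched. CCAAT was in the 150 bases of 54.7% against 25.3% of all 27025 genes there, CCGGAA in 28.4% against 9.48%, and CACGTG in 11.6% against 4.30%. TATAAA was in 0 of these 95 stretches against 8.08% of all genes, while the NRF1 motif, ANATGGC (YY1) and TTANNTAA (D-box) were in 3.16%, 5.26% and 4.21% against 4.25%, 6.72% and 3.00%. The 7 motifs were matched on both strands, a match is only a run of letters, and these shares were not tested. The members had passed a minimum of counts in liver, which was not asked of all genes there. The median stretch held 6 CG pairs in the members and 4 in all genes.

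The members lay on 15 chromosomes, most often on chromosome 7 (22 members), 17 (20), 13 (12) and 8 (12). With neighbours no more than 1000000 bases apart joined, they formed 53 runs, of which 6 held 5 or more members (38 members in all), and 34 members were alone. The largest run, chr17:21567008-22867134, held 13 members, among them Zfp760, Zfp820 and Zfp947. Reads can be split between such copies, so the share of each member's 75-base windows that occur in another gene was computed. It was 0.212% in the median, 0 in 45 members, and above 25% in 6, namely Zfp960 (75.3%, mostly shared with Zfp97), Zfp984 (40.9%), Zfp963 (37.7%), Zfp971 (32.8%), Zfp970 (30.4%) and Zfp932 (26.4%), whose counts are uncertain. The 6 that passed the test shared little: 7.43% for Zkscan4 (with Zkscan3), 0.226% for Zfp820, and 0 for Zfp703, Zfp750, Zfp760 and Zkscan6.

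Levels between genes were compared per kb of exon. The median member stood at 1.44 CPM per kb, above 58.6% of the 22412 genes tested that had a length, and the range ran from 0.0569 to 16.3 CPM per kb. The members had been selected on a larger sum of counts than was asked of the genes tested. The rank is thus partly set by the selection and cannot show that these genes stand high. The median was 1.02 for members with the KRAB pattern and 2.02 for those without. The highest was Zfp706, a small protein with a single finger, at 16.3 CPM per kb, followed by Zfp707 (13.5), Zscan26 (11.2), Zfp825 (10.0), Zfp768 (9.11), Zfp740 (8.04), Zfp771 (7.79) and Zkscan17 (5.43). The value of Zfp740 is uncertain, since Csad overlaps it on the opposite strand with 714% of its counts and the use of strand in counting is not stated. Zfp706 had 84.0 to 90.8 CPM in Rosa26 and 77.2 to 87.8 in HIRA libraries at 3 weeks, and 73.1 to 83.4 against 69.9 to 89.6 at 6 months. The guides overlapped at both times, while every Rosa26 library at 3 weeks was above every Rosa26 library at 6 months. With all 20 libraries fitted, none of these 8 genes passed the edgeR test in any comparison, and Zfp707 passed in the average of the times when 1 library was left out (below).

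**Figure D1:**
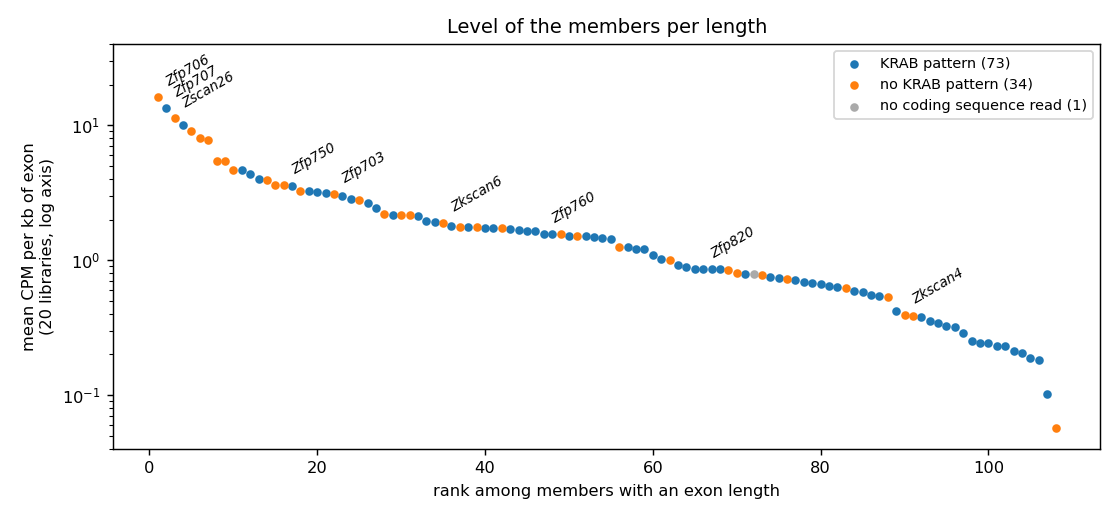
Mean level of the 108 members with an exon length, in CPM per kb over all 20 libraries on a log axis, ranked from highest to lowest, with the KRAB pattern marked by colour. The levels run from 16.3 (Zfp706) to 0.0569 CPM per kb, and Zkscan4 lies far lower than Zfp703 and Zfp750.

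At 3 weeks, edgeR called 1 member, Zfp703, higher with the HIRA guide and none lower. Zfp703 is a co-repressor of the NET family without a canonical finger array, known in human breast cancer for its amplification (ENSMUSG00000085795.8, protein coding, chr8:26977325-26981461). Its level was 8.31, 6.44, 9.01, 8.29 and 8.10 CPM in the Rosa26 libraries and 15.5, 11.9, 12.1, 11.8 and 12.0 CPM in the HIRA libraries, replicates 1 to 5. The groups did not overlap, with a log2 fold change of 0.66 ± 0.12 (SE, n = 5 per group, edgeR adjusted p = 0.0311). In this bulk tissue, a change in the cells that express a gene and a change per cell cannot be told apart.

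This count of 1 of 111 (0.901%) stands beside 0.197% of the 22867 genes tested, and no member passed with an absolute log2 fold change above 1, which 0.114% of the genes did. With a mean of 1 CPM or more, 1 of 101 members was called higher and 0 lower, against 30 and 13 of 12903 genes. Leaving out any of 9 of the 10 libraries at 3 weeks (each but HIRA replicate 3) lost the call of Zfp703, with adjusted p from 0.0588 to 0.109. Levels of clock genes stood beside this result. The summed level of 9 that peak towards evening was 169 to 285 CPM in Rosa26 and 300.0 to 734 CPM in HIRA libraries, with 5 of 9 called, and that of 5 that peak towards morning was 157 to 191 against 50.9 to 139 CPM, with 0 of 5 called. Their part in the result was not tested. The evening sums at 6 months were 361 to 576 against 214 to 732 CPM, which overlap, with 0 of 9 called.

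Besides Zfp703, the 5 members with the largest decrease at 3 weeks among those with a mean of 1 CPM or more were Zkscan6, Zfp773, Zfp839, Zfp951 and Zscan22, at log2 fold changes of −0.61, −0.59, −0.49, −0.47 and −0.39. None of them passed the main edgeR test (adjusted p = 0.0832, 0.639, 0.0945, 0.743 and 0.465), and DESeq2 called Zkscan6 and Zfp839. Zfp839 had 14.2 to 17.0 CPM with the Rosa26 guide against 8.71 to 13.4 with the HIRA guide, without overlap, but Mpc1-ps overlaps this gene on the opposite strand with 139% of its counts. Increases after Zfp703 were 0.56 for Zfp970, 0.35 for Zfp872, 0.32 for Zfp704 and 0.31 for Zfp750. Zfp831, named here after its values were seen, had the largest estimate (0.72 ± 0.54) on a mean of only 0.558 CPM. The libraries of the guides did not overlap at 3 weeks for 5 members, with the HIRA libraries above for Zfp703, Zfp970 and Zfp710 and below for Zkscan6 and Zfp839, against 2.69% of all genes. The median log2 fold change of the 111 members was −0.03, and 69 lay below 0, against −0.01 and 50.9% for all genes tested. Members with and without the KRAB pattern had medians at this time of −0.03 with 46 of 73 below 0 and −0.05 with 21 of 34 below 0.

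At 6 months, 4 members passed the test: Zfp703 was again higher, and Zfp760, Zkscan4 and Zfp820 were lower with the HIRA guide. This is 3.60% of the members against 1.31% of all genes tested (0.695% higher and 0.612% lower). The members had to reach a larger sum of counts than those genes, so these shares are not like for like. Among genes with a mean of 1 CPM or more, 1 of 101 members was called higher and 2 lower. Of all 12903 such genes, 148 were called higher and 132 lower. Zkscan4 also passed with an absolute log2 fold change above 1, as did 0.332% of all genes.

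Zfp760 is a KRAB protein with 16 fingers (ENSMUSG00000067928.6, chr17:21707741-21725636). It stood at 9.09, 10.1, 8.48, 10.3 and 9.04 CPM in the Rosa26 libraries and at 5.20, 5.24, 5.27, 5.57 and 5.13 CPM in the HIRA libraries at 6 months. The groups lay far apart, and the HIRA libraries were closer together than those of any other group. This gave a log2 fold change of −0.83 ± 0.13 (adjusted p = 0.0105 by edgeR). At 3 weeks the values were 5.73, 5.39, 7.35, 6.09 and 8.61 against 5.30, 5.34, 4.16, 4.68 and 6.49 CPM, which overlap (−0.35 ± 0.13, adjusted p = 0.395).

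Zfp820, a KRAB protein with 12 fingers in the same run (ENSMUSG00000069743.5, chr17:21816885-21845772), had 4.10, 5.41, 3.44, 4.59 and 4.08 CPM in Rosa26 and 3.01, 2.91, 1.95, 2.69 and 2.59 CPM in HIRA libraries at 6 months. Every HIRA library was below every Rosa26 library, giving a log2 fold change of −0.71 ± 0.16 (adjusted p = 0.0300 by edgeR). At 3 weeks the ranges, 2.40 to 3.63 and 2.37 to 3.24 CPM, overlapped (−0.17 ± 0.16, adjusted p = 0.855). The call at 6 months was lost without Rosa26 replicate 1, 2 or 4 or HIRA replicate 3, with adjusted p up to 0.0833.

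Zkscan4 encodes a SCAN zinc finger protein with 7 fingers (ENSMUSG00000054931.7, chr13:21478907-21485507). It was the lowest of the called members in level, with 40, 27, 30, 33 and 34 counts in the Rosa26 and 13, 20, 12, 13 and 5 counts in the HIRA libraries at 6 months, which is 1.26 to 1.71 against 0.254 to 0.911 CPM. The groups did not overlap, giving a log2 fold change of −1.38 ± 0.26 (adjusted p = 0.0149 by edgeR). The 3-week counts were 20, 17, 24, 19 and 29 against 11, 15, 14, 24 and 14, with overlap (−0.52 ± 0.26, adjusted p = 0.595). Its neighbour Zkscan3, described as a repressor of autophagy genes, was far more abundant and had a log2 fold change of −0.04 ± 0.13 at 6 months (adjusted p = 0.923), or −0.21 without HIRA replicate 5 (adjusted p = 0.332).

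Zfp703 had 8.62, 7.60, 11.0, 6.67 and 8.35 CPM in Rosa26 and 14.4, 13.1, 12.2, 11.5 and 13.3 CPM in HIRA libraries at 6 months, again without overlap (0.61 ± 0.12, edgeR adjusted p = 0.0204). Its call was lost without Rosa26 replicate 4 (adjusted p = 0.0728) or HIRA replicate 1 (adjusted p = 0.0581). Without the library that goes against its label, HIRA replicate 5, all 4 calls were kept, at log2 fold changes of −0.82 for Zfp760, −0.71 for Zfp820, −1.20 for Zkscan4 and 0.60 for Zfp703 (adjusted p = 0.00778, 0.0374, 0.0175 and 0.0247). In that fit 3.60% of the members were called, against 1.73% of all genes tested. When only the 10 libraries at 6 months were fitted, edgeR called none of the 111 (smallest adjusted p = 0.0787, 22 at an unadjusted p under 0.05), as it called 0.0% of all genes. DESeq2 on all 20 libraries called 10 members, the 4 among them, which is 9.01% against 6.22% of the genes to which it gave an adjusted p.

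**Figure D2:**
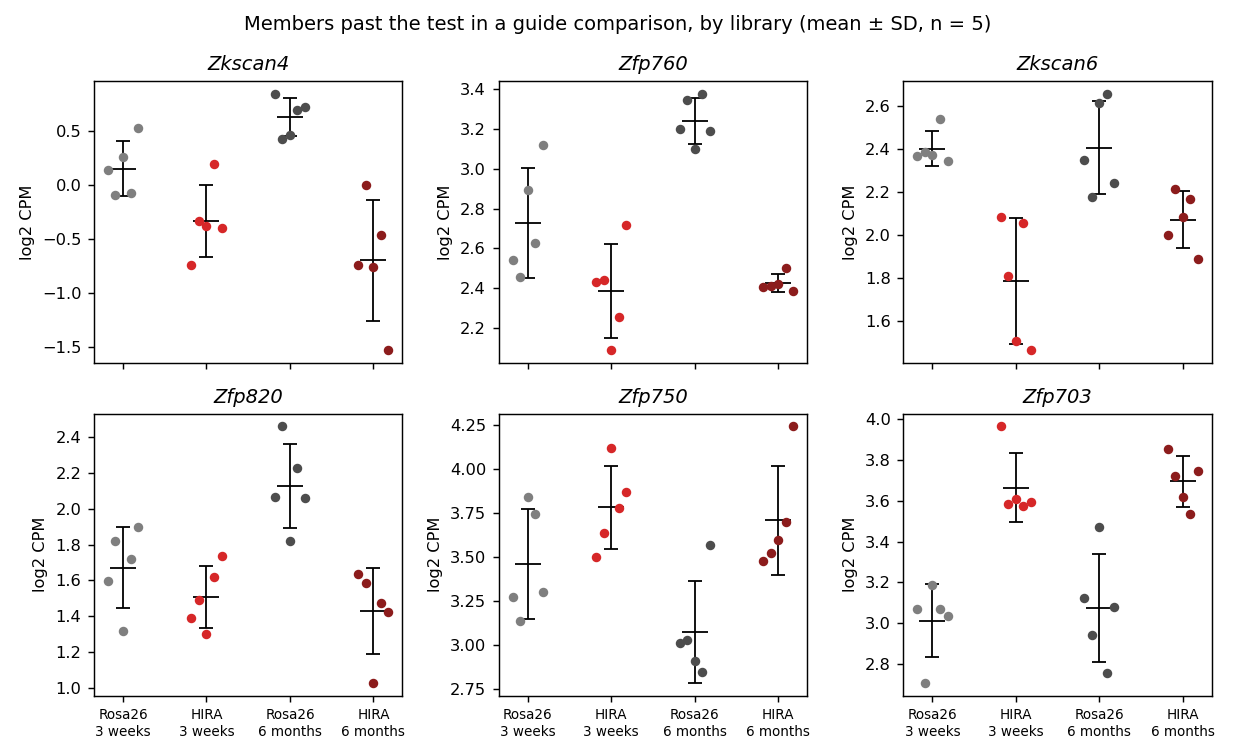
Level of the 6 members that passed the test in a guide comparison, in log2 CPM per library, with mean and SD of the 5 libraries of each group. At 6 months the Rosa26 and HIRA points of Zkscan4, Zfp760, Zfp820 and Zfp703 do not overlap, and at 3 weeks those of Zfp703 and Zkscan6 do not.

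At 6 months the libraries of 7 of 111 members did not overlap, against 3.15% of all genes. With 4 HIRA libraries, replicate 5 left out, it was 10 members (9.01%) against 5.69%. Zfp703 had every HIRA library above every Rosa26 library, and Zfp760, Zfp820, Zkscan4, Zfp947, Zfp867 and Zfp960 had every HIRA library below. Zfp710, Zfp867 and Zfp960 are named for their separation after their values were seen. The largest decreases past those called by edgeR were Zfp773 (−0.91 ± 0.30, edgeR adjusted p = 0.140), Zfp947 (−0.72 ± 0.22, adjusted p = 0.110) and Zfp763 (−0.60 ± 0.17, adjusted p = 0.0896), all with the KRAB pattern. DESeq2 called Zfp773 and Zfp763. Zfp773 stood at 1.56 to 3.73 CPM with the Rosa26 guide and at 0.610 to 1.60 with the HIRA guide, and HIRA replicate 5 was the lowest. Without that library its log2 fold change was −0.74 (adjusted p = 0.185), and those of Zfp947 and Zfp763 were −0.64 and −0.50 (adjusted p = 0.156 and 0.134). Increases that did not pass the main edgeR test were 0.64 for Zfp750 (which DESeq2 called), 0.39 for Zfp764, 0.35 for Zfp951 and 0.34 for Zfp970. Without HIRA replicate 5 these were 0.48, 0.51, −3.73e-05 and 0.45, so the value of Zfp951 rested on that library.

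Across the set at 6 months, 76 of 111 members lay below 0 with a median log2 fold change of −0.07, while 45.7% of all genes tested lay below 0 and their median was 0.03. An unadjusted p under 0.05 was reached by 26 members (23.4%), 20 lower and 6 higher, beside 15.5% of all genes tested and 21.1% of those with a mean of 1 CPM or more. The 73 members with the KRAB pattern had a median of −0.13 with 57 below 0, none called higher and 2 lower, whereas the 34 without it had a median of 0.00 with 17 below 0, 1 called higher and 1 lower. The 14 SCAN members had a median of −0.14 with 12 below 0, and the 24 with neither pattern a median of 0.09 with 9 below 0. The 204 other Zfp genes with lower numbers and the same minimum sum had a median of 0.02 with 97 below 0 and 1 called. They were not split by the KRAB pattern and may hold KRAB genes. The median of the KRAB members stayed between −0.14 and −0.04 over all 28 settings, those with a library left out included, and was −0.11 with 56 below 0 without HIRA replicate 5. Genes are not replicates, and these shifts are descriptions without a test.

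**Figure D3:**
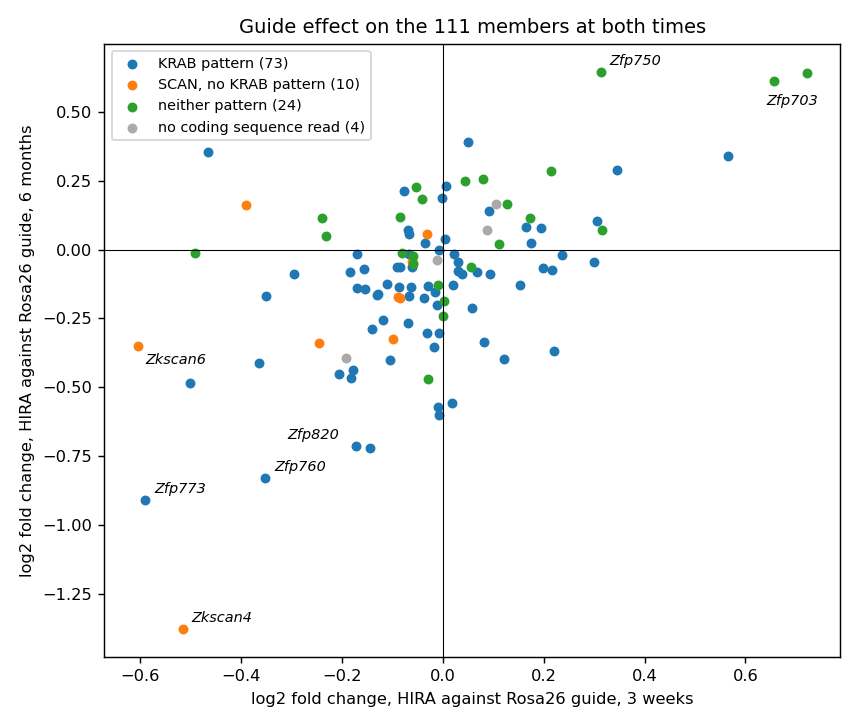
Log2 fold change of HIRA against Rosa26 guide at 3 weeks (x axis) and 6 months (y axis) for the 111 members, coloured by sequence pattern. At 6 months 57 of 73 KRAB members lie below 0, and Zkscan4 (−0.52, −1.38), Zfp760 (−0.35, −0.83) and Zfp703 (0.66, 0.61) lie towards the corners.

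To compare the libraries, each member's log2 CPM was centred on its mean over all 20 libraries and averaged over the KRAB members. The lowest, median and highest library were −0.060, −0.008 and 0.070 in Rosa26 at 3 weeks, −0.069, −0.043 and 0.020 in HIRA at 3 weeks, 0.035, 0.098 and 0.163 in Rosa26 at 6 months, and −0.133, −0.050 and 0.015 in HIRA at 6 months. The 6-month groups did not overlap in this mean. With the median over the members in place of the mean they did overlap, at −0.035 to 0.142 in Rosa26 and −0.105 to 0.014 in HIRA, since Rosa26 replicate 3 was at −0.035. For members without the KRAB pattern the 6-month ranges, −0.069 to 0.069 and −0.043 to 0.054, overlapped, as did those of the other Zfp genes, −0.101 to 0.084 and −0.061 to 0.077. The group means of the KRAB members at 6 months were 0.100 ± 0.060 for Rosa26 and −0.059 ± 0.055 for HIRA (SD, n = 5). HIRA replicate 5 was at −0.082, within the range of the other 4.

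**Figure D4:**
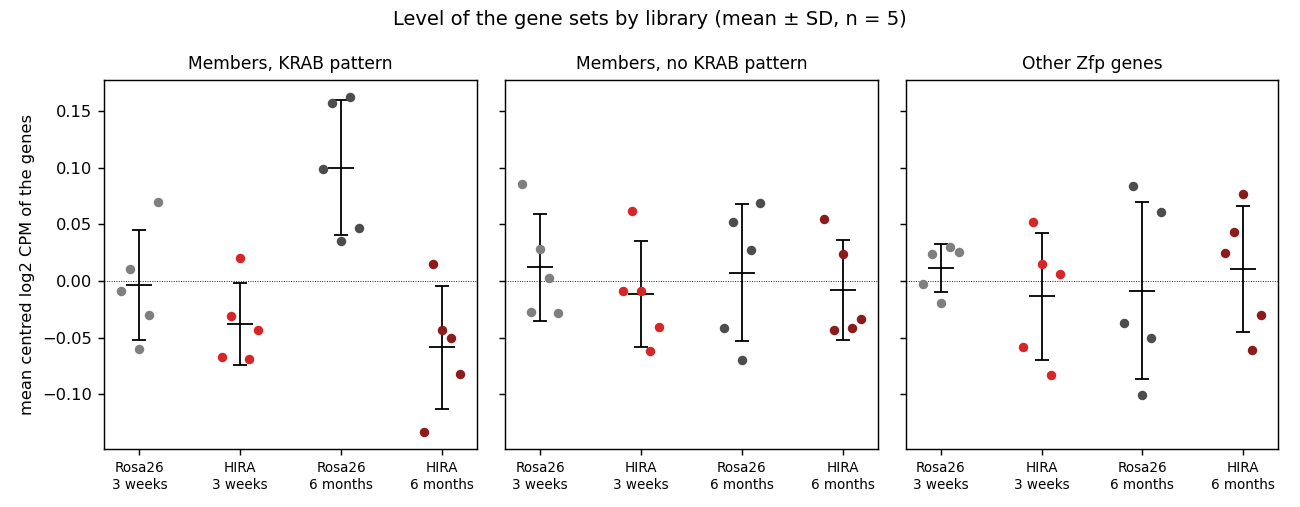
Mean centred log2 CPM per library of the 73 KRAB members, the 34 members without the pattern and 204 other Zfp genes, with mean and SD of the 5 libraries of each group. The 204 were not split by the pattern. For the KRAB members Rosa26 at 6 months (0.035 to 0.163) lies above HIRA at 6 months (−0.133 to 0.015) in this mean, though not in the median over the members, and in the other panels these groups overlap.

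By position, all 13 members of the run that holds Zfp760 were below 0 at 6 months, with a median log2 fold change of −0.17, 5 at an unadjusted p under 0.05 and 2 called by edgeR. At 3 weeks 10 of these 13 were below 0. In 2 more runs every member was below 0 at 6 months and none was called by edgeR, the one from Zfp712 to Zfp738 (chr13:67038596-67687071, 5 members, median −0.30) and the one from Zfp871 to Zfp763 (chr17:32765496-33033402, 5 members, median −0.27). DESeq2 called Zfp763 and Zfp870 (named here for that call) of the latter run. In the run with Zkscan4 (chr13:21362820-21531120) all 5 were below 0, but the median was −0.07 and Zkscan4 alone was far from it, and without HIRA replicate 5 the median was −0.21. The opposite held in the run of Zfp771, Zfp768, Zfp747 and Zfp764 (chr7:127244274-127406822), where all 4 were above 0 with a median of 0.27, 3 at an unadjusted p under 0.05 and none called. Without HIRA replicate 5 the medians of the runs of Zfp760, Zfp712, Zfp871 and Zfp771 were −0.22, −0.38, −0.21 and 0.23, and every member kept its side of 0. Neighbours can share reads and sequence, so the members of a run are not independent.

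**Figure D5:**
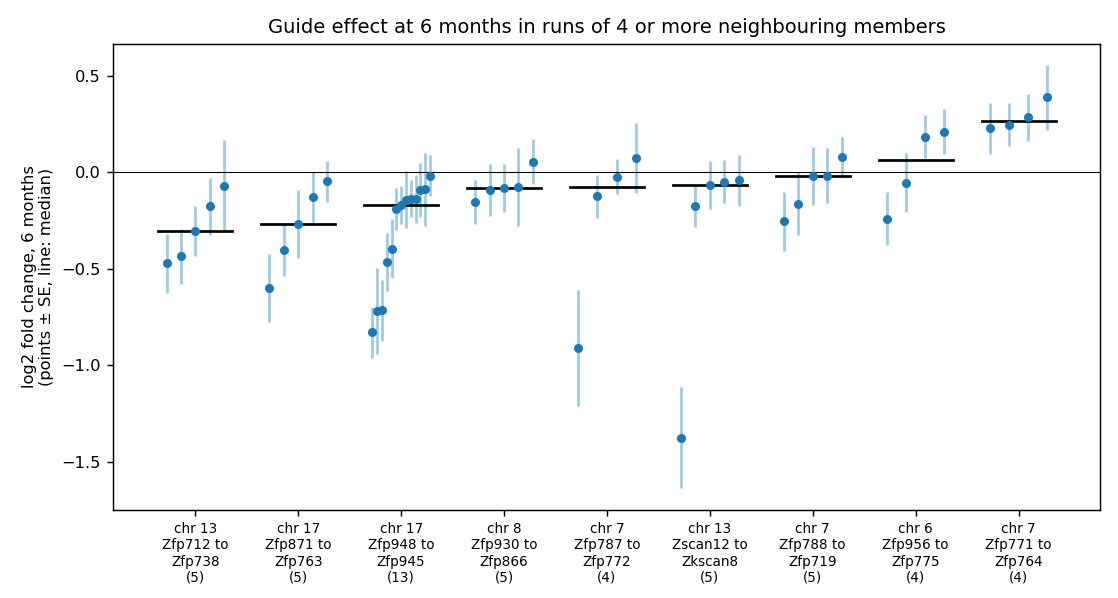
Log2 fold change with SE of HIRA against Rosa26 guide at 6 months for members in the 9 runs of 4 or more neighbours, each run with its median as a line. All 13 members from Zfp948 to Zfp945 on chromosome 17 lie below 0, and all 4 from Zfp771 to Zfp764 on chromosome 7 lie above 0.

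Averaged over both times, 6 members passed (5.41%, against 2.85% of all genes tested, 1.48% higher and 1.37% lower). At a mean of 1 CPM or more, 2 were called higher and 3 lower of 101 members, against 294 and 298 of 12903 genes. Zfp703 (0.63 ± 0.09, edgeR adjusted p = 0.00102) and Zfp750 (0.48 ± 0.12, adjusted p = 0.0396) were higher. Zfp760 (−0.59 ± 0.09, adjusted p = 0.00215), Zkscan4 (−0.95 ± 0.19, adjusted p = 0.00760), Zkscan6 (−0.48 ± 0.10, adjusted p = 0.0106) and Zfp820 (−0.44 ± 0.11, adjusted p = 0.0348) were lower. The median was −0.08 for members with the KRAB pattern (53 of 73 below 0) and −0.05 for those without it (20 of 34 below 0). DESeq2 called 13 members in the average (11.7%), against 8.87% of the genes to which it gave an adjusted p, and 3 at 3 weeks (2.70% against 1.37%). Leaving out 1 of the 20 libraries kept Zfp703, Zfp760, Zkscan4 and Zkscan6 in every case, whereas Zfp820 was lost in 8 and Zfp750 in 11. Zfp820 was also lost with no filter on low counts (adjusted p = 0.0594). Without HIRA at 6 months replicate 5, 8 members passed (7.21%, against 3.87% of all genes), Zfp707 (−0.31, adjusted p = 0.0462) and Zfp970 (0.51, adjusted p = 0.0489) being added.

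Zkscan6, a SCAN protein with 5 fingers (ENSMUSG00000018347.16, chr11:65807175-65829239), passed the main edgeR test in this average and in no other comparison with all 20 libraries. At 3 weeks (−0.61, adjusted p = 0.0832) it was also called by DESeq2 (adjusted p = 0.00836) and by edgeR with the filter of 1 CPM in 5 libraries (adjusted p = 0.0488). It stood at 5.07, 5.14, 5.08, 5.73 and 4.98 CPM in Rosa26 and 4.15, 3.42, 2.76, 4.07 and 2.67 CPM in HIRA libraries at 3 weeks, without overlap. At 6 months the values were 4.99, 4.43, 6.02, 6.21 and 4.63 against 3.91, 4.55, 4.15, 4.40 and 3.61 CPM, which overlap (−0.35 ± 0.14, edgeR adjusted p = 0.225).

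Zfp750, known as a regulator of epidermal differentiation (ENSMUSG00000039238.6, chr11:121510978-121519333), had 9.58, 8.69, 14.2, 13.3 and 9.77 CPM in Rosa26 and 11.2, 12.4, 17.3, 13.6 and 14.5 CPM in HIRA libraries at 3 weeks. At 6 months it had 7.98, 8.06, 7.40, 7.09 and 11.8 against 11.1, 11.4, 12.0, 12.9 and 18.9 CPM, and only Rosa26 replicate 5 reached the HIRA range. Tbcd overlaps Zfp750 on the opposite strand with 202% of its counts, so without strand information the reads of these genes cannot be told apart.

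The members with roles known from other work did not pass in any comparison unless named above. Zfp809, which silences retroviral sequences through their primer binding site, had 8.81 to 11.6 CPM in Rosa26 and 9.39 to 17.9 in HIRA libraries at 6 months (0.19 ± 0.16, edgeR adjusted p = 0.639). HIRA replicate 5 alone was at 17.9, the others reached at most 12.0 CPM, and without it the log2 fold change was 0.0011. Zfp932, also a silencer of endogenous retroviruses and one of the 6 members with shared windows, had a log2 fold change of −0.35 ± 0.15 (adjusted p = 0.242), and Zfp746 (PARIS), a repressor of the gene for PGC-1α, one of 0.18 ± 0.11 (adjusted p = 0.459), which was 0.06 without HIRA replicate 5. Zfp830, a splicing-associated protein, was at 0.23 ± 0.10 (adjusted p = 0.251). Zkscan1, Zkscan17, Zscan21, Zfp777 and Zfp800 lay between −0.17 and 0.21 at 6 months. Of other genes listed for their roles, Zfp708 had 12 counts in all, Zscan10 10, Zfp819 6, Zfp827 162, and Zscan4c and Zfp804a 0, so none was a member.

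Transcripts of the partners of KRAB proteins were read as a list. Of 29 genes for TRIM28, SETDB1, HP1, deacetylases, DNA methylation and related complexes, none was called at 3 weeks or in the average and 1 at 6 months, Mbd1, a reader of methylated DNA (0.52 ± 0.13, edgeR adjusted p = 0.0407). Without HIRA replicate 5 Mbd1 was at 0.45 and no longer passed (adjusted p = 0.0703), so 0 of the 29 were called by edgeR and 3 had an unadjusted p under 0.05. At an unadjusted p under 0.05 there were 2, 5 and 5 at 3 weeks, 6 months and in the average, which is 6.90%, 17.2% and 17.2% beside 8.87%, 15.5% and 16.6% of all genes tested. Dnmt3b, a DNA methyltransferase named here after its values were seen, had 124 to 167 counts in the Rosa26 and 45 to 123 in the HIRA libraries at 3 weeks, which is 5.73 to 8.46 against 1.97 to 5.76 CPM with a slight overlap, and did not pass (−1.13 ± 0.37, adjusted p = 0.283). Its average over both times was −0.75 ± 0.26 (adjusted p = 0.138). Trim28 had a log2 fold change of 0.07 ± 0.08 at 3 weeks and 0.09 ± 0.08 at 6 months (adjusted p = 0.904 and 0.662), and Setdb1 0.02 ± 0.06 and −0.07 ± 0.06 (adjusted p = 0.973 and 0.624).

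Over time, no member passed in either arm. From 3 weeks to 6 months under the Rosa26 guide, 0 of 111 passed edgeR (smallest adjusted p = 0.0901, Zfp760; DESeq2 called 2, or 1.80% against 3.35% of genes) against 0.324% of all genes, and 23 (20.7%) had an unadjusted p under 0.05, 15 of them higher at 6 months, beside 12.8% of all genes and 16.5% of those with a mean of 1 CPM or more. The median was 0.05, with 43 below 0, and it was 0.08 for the KRAB members and 0.01 for those without the pattern. Zfp760 had a log2 fold change of 0.50 ± 0.13 and Zfp820 of 0.47 ± 0.16 (adjusted p = 0.191). Under the HIRA guide, 0 passed edgeR and 0 passed DESeq2 (smallest edgeR adjusted p = 0.268, 7 at an unadjusted p under 0.05) against 0.0656% and 0.850% of all genes, with a median of −0.02 (−0.03 with and 0.02 without the KRAB pattern). Zfp760 was at 0.02 ± 0.13 and Zfp820 at −0.07 ± 0.16 there. The Rosa26 libraries at 6 months enter both the guide comparison at 6 months and the Rosa26 time course, so these values are not independent of each other.

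Whether the effect of the guide differed between the 2 times was tested by itself, and no member passed (0 by edgeR and 0 by DESeq2, smallest edgeR adjusted p = 0.685, 8 at an unadjusted p under 0.05), as was the case for 0.0% of all genes tested by either tool. It was −0.48 ± 0.19 for Zfp760, −0.54 ± 0.22 for Zfp820, −0.86 ± 0.37 for Zkscan4 and −0.05 ± 0.17 for Zfp703. That more members were called at 6 months than at 3 weeks therefore does not show that the guide effect differed. The 2 guide comparisons share no library. Over the 111 members their log2 fold changes correlated at r = 0.56 (Pearson) and rho = 0.45 (Spearman), with 56 below 0 at both times and 22 above 0 at both, and over 12903 genes with a mean of 1 CPM or more r was 0.32 and rho 0.39. These are descriptions across genes, which are not independent replicates.

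Markers of liver cell types were read beside these results. Of 62 genes on 6 lists (hepatocytes, Kupffer cells, endothelium, stellate cells, cholangiocytes and lymphocytes), none was at 0 and none was called in a guide comparison. The sums at 6 months overlapped between the guides for each list, for example 279 to 498 against 355 to 956 CPM for 10 stellate genes, 12.3 to 43.7 against 11.5 to 57.6 CPM for 12 lymphocyte genes, and 86400 to 125000 against 105000 to 148000 CPM for 10 hepatocyte genes. The median log2 fold change at 6 months was 0.47 for the stellate, 0.48 for the lymphocyte, 0.26 for the endothelial, 0.16 for the cholangiocyte, 0.11 for the hepatocyte and −0.16 for the Kupffer list, beside −0.13 for the KRAB members. At 3 weeks the sums of lymphocyte genes were 11.4 to 20.7 against 18.3 to 29.3 CPM, with a median log2 fold change of 0.59. The sums of 10 proliferation genes at 6 months were 7.60 to 29.6 against 6.35 to 36.3 CPM, and none was called. Their part in the results was not tested.

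The genes whose log2 CPM ran most like that of a called member over the 20 libraries, among 12903 genes, were Atp7b, a copper transporter (Pearson r = 0.88), Grb7 (0.87) and Bbc3 (0.83) for Zfp760. For Zfp703 they were Gm31522, Cln6 and Nptn (0.88, 0.88 and 0.87), and for Zkscan4 Slc35a1, Shmt1 and Echdc3 (0.88, 0.88 and 0.87). For Zkscan6 they were Blmh, Polr3gl and Pcbd2 (0.87, 0.85 and 0.83), for Zfp820 Gm13855, 4933404O12Rik and Pxdc1 (0.86, 0.85 and 0.83), and for Zfp750 1700017B05Rik, Ppm1d and Acbd5 (0.85, 0.83 and 0.82). Such values are the top of many, they include the differences between the groups, and they carry no test.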

How the data were processed

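Poly(A) RNA of 20 mouse livers was sequenced, and the sample titles gave the groups. Reads were aligned to mm10 by the authors with STAR, and unnormalized counts for each gene were deposited. Their methods name HOMER for counting and their processing notes name HTSeq and Cufflinks, and the use of strand is not stated. A second table deposited by the authors holds FPKM values. These served as an alternative to the counts, with limma run on log2(FPKM + 1) and blank cells set to 0.

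Genes with 10 or more counts in total (22867) were tested with edgeR 4.0.16 (glmQLFit and glmQLFTest, TMM) in R 4.3.3. All 20 libraries were fitted with 4 group means, and p-values were adjusted by Benjamini-Hochberg over all genes. A gene was called at an adjusted p under 0.05. CPM were scaled by TMM, and log2 CPM used a prior count of 2. Alternatives were DESeq2 1.42.0, limma 3.58.1, other size factors, 2 other count filters, the 2 groups alone, a replicate block, a minimum of 1000 counts, and each library left out in turn. On simulated 6-month counts of 22429 genes, edgeR recovered 195 of 200 genes with a log2 change of 2 and made 7 false calls, and DESeq2 recovered 197 with 20 false calls. The changed genes averaged 1 CPM or more, and changes as small as those of the called members were not simulated. No 2 replicates were alike within sampling noise (chi-square per gene 15.1 to 121). The labels call the replicates independent.

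Patterns for KRAB, SCAN and C2H2 fingers were matched to translated GENCODE M21 coding sequences. The named genes were members that were called, the 5 largest increases and decreases of each guide comparison at a mean of 1 CPM or more, the 8 highest per length, members listed for their roles, the nearest to the sum of 200, the 3 most correlated with a called member, and a list of partners. The members and lists were chosen with earlier results of these data known. Tables and figures were made with matplotlib 3.10.9, scipy 1.17.1, pandas 2.3.3 and numpy 2.4.6 in Python 3.11.15.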

Additional observations from a re-analysis of the deposited data

Results flagged for a closer look

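In 72 groups of 5 libraries (17 named members and the mean over all members, in 4 groups each), 10 values stood apart from those of the other 4 libraries of their group by Dixon's criterion at 95%, which chance gives in about 1 of 20 groups. Values are log2 CPM. HIRA at 6 months replicate 5, the library that goes against its label, made up 3 of the 10, with 4.24 for Zfp750 (others 3.48 to 3.70), −0.51 for Zfp773 (0.55 to 0.76) and −0.41 for Zfp947 (0.01 to 0.13). Zfp703 was at 3.96 in HIRA at 3 weeks replicate 1 (3.57 to 3.61), and without this library its log2 fold change at 3 weeks was 0.57 (edgeR adjusted p = 0.0866). Zfp750 was at 3.57 in Rosa26 at 6 months replicate 5 (2.84 to 3.03), and without it the log2 fold change at 6 months was 0.79 and passed (edgeR adjusted p = 0.0399). Zkscan6 was at 2.54 in Rosa26 at 3 weeks replicate 4 (2.34 to 2.39), and Zfp951 at 1.11 in Rosa26 at 6 months replicate 3 (0.43 to 0.51). Zfp704 was at 3.02 in Rosa26 at 3 weeks replicate 2 (3.50 to 3.59), Zfp872 at 0.57 in Rosa26 at 3 weeks replicate 5 (−0.32 to −0.15), and Zfp970 at 4.06 in HIRA at 3 weeks replicate 4 (3.30 to 3.45).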

How the results depend on the processing

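The median log2 fold change of the members at 6 months was below 0 under every setting run (−0.11 to −0.03), as was that at 3 weeks (−0.06 to −0.00). The median of all genes moved by under 0.1 between scalings. The number of members called moved by over 1.5 times under these settings, and the cause was not tested. DESeq2 called 3 at 3 weeks, 10 at 6 months, 13 in the average and 2 over time under the Rosa26 guide, in place of 1, 4, 6 and 0. FPKM with limma called 0 at 3 weeks (9 at an unadjusted p under 0.05) and gave a median log2 fold change of −0.0131 in the average. The 6 members called by edgeR in the average were also called by it, at −0.27 for Zkscan4, −0.32 for Zfp760, −0.29 for Zkscan6, −0.18 for Zfp820, 0.55 for Zfp703 and 0.39 for Zfp750. A filter of 1 CPM in 5 libraries left 2 calls at 3 weeks (1.92% of 104 members, against 0.676% of genes), 4 at 6 months (3.85% against 3.88%) and 10 in the average (9.62% against 6.72%). No filter left 5 in the average (Zfp820 lost), and the 2 groups alone left 0 at 6 months by edgeR (22 at an unadjusted p under 0.05). With 1 library left out, the calls ranged from 0 to 2 at 3 weeks, 2 to 5 at 6 months, 4 to 8 in the average and 0 to 1 over time under the Rosa26 guide. At 6 months 2 were left without Rosa26 replicate 4, and over time 1 was called without Rosa26 at 3 weeks replicate 5. The log2 fold change of Zfp951 at 6 months ranged from −3.73e-05 (without HIRA replicate 5) to 0.52 with 1 library left out. The fit of 2 groups alone has no counterpart for the average and the difference of guide effects. Same-numbered libraries of 2 groups correlated at −0.31 to 0.33, and whether they share more than a number was not tested. With the replicate block 1 member was called at 3 weeks, 5 at 6 months (Zfp750 added) and 6 in the average, against 0.236%, 1.42% and 2.93% of all genes. Depth limits Zkscan4 most among the called members, which rests on 5 to 40 counts per library.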
